A study of Mus musculus with 9 samples.

Results

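Double-marked distal regions inside genes are stretches of chromatin that carry both H3K27ac and H3K4me1, lie away from every annotated transcript start and fall within a protein-coding gene. They were chosen by called peaks of both marks, starting from the pooled H3K27ac peak list of primary oviductal muscle cells. A pooled H3K27ac peak on chromosomes 1 to 19 or X was kept when it overlapped a peak in all 3 H3K27ac replicate lists, overlapped a pooled H3K4me1 peak that itself overlapped a peak in all 3 H3K4me1 replicate lists, touched no window of 1 kb on either side of a transcript start, and overlapped a protein-coding gene body. An overlap of 1 bp was enough. Of 64843 pooled H3K27ac peaks, 6942 met these conditions, or 10.7%. Of the 64816 peaks on the chromosomes used, 25528 were found in all 3 H3K27ac lists, 19262 of those also carried H3K4me1, 11347 lay outside the start windows, and 6942 of these lay inside genes.

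All samples came from WT mice on day 2 of pregnancy, when embryos are still in the oviduct. Oviducts of females aged 8 to 12 weeks were digested with enzymes, filtered and cultured for some hours, with no sorting step named in the labels, and the cells were fixed before use. ChIC-Seq, in which an antibody leads protein A fused to MNase to cut the chromatin around its target, was done with antibodies against H3K27ac (n = 3), H3K4me1 (n = 3) and with control IgG (n = 3). The IgG libraries served as the background of the peak calls and have no values of their own here. The labels do not say whether replicates came from separate mice, so p-values measure only the spread between these libraries, which may be technical.

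The replicate calls rested on 40551842 to 78891920 fragments of antibody libraries and 3110985 to 3713369 fragments of IgG, and the deeper library was scaled down to the IgG depth. H3K4me1 replicates 1 and 2 and H3K27ac replicate 2 shared IgG replicate 2, and H3K27ac replicate 3 and H3K4me1 replicate 3 shared IgG replicate 3. H3K27ac replicate 1 had the longest list, with 152889 peaks against 99035 and 93684. As a check of the labelled cell type, 3 of 8 smooth muscle markers had a promoter peak of H3K27ac in all 3 lists (Acta2, Des and Synpo2), while Myh11, the smooth muscle myosin heavy chain, had none in any list. All 5 fibroblast markers (Col1a1, Col3a1, Dcn, Lum and Pdgfra) had such a peak in all 3 lists, against 0 of 7 epithelial, 1 of 6 blood (Ptprc) and 1 of 5 endothelial markers (Emcn). In the longer lists used below, 8 of 16 contractile, 4 of 16 blood, 1 of 16 epithelial and 1 of 12 endothelial genes had one, and of all 21755 protein-coding genes 46.1% did. The part that fibroblasts or other cells had in the regions was not tested.

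Enhancers are stretches of DNA away from the start of a gene that raise its transcription when transcription factors bind them. H3K4me1 is laid down at enhancers before and during their use, and H3K27ac is added where enhancers and promoters are active, so that a distal site with both marks is the usual description of an active enhancer. Introns hold many such sites, which may act on the gene around them or on another gene nearby. Which gene a region acts on was not measured here, and a host gene below is only the gene that contains it.

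The sequences of 4 regions are shown to give an impression of what the regions are made of. For 7 of the gene lists described below, the best-ranked region lying wholly in introns of 1 gene was taken, with 1 chromosome left out of the choice, where the rank of a region is its pileup percentile in the weakest of the 6 replicate lists, and cut to the 300 bp about its centre. The 4 shown were chosen from these 7 windows after they had been seen, and 2 of the 3 left out, in Tns1 and Col4a1, held no match to the motifs named next. All are on the plus strand of GRCm38, and capitals mark matches on either strand to the binding motifs of AP-1 (TGANTCA), TEAD (GGAATG), SRF (the CArG box), RUNX (TGTGGT), HAND and TWIST (CATCTG) or SP and KLF factors (GGGCGG). The windows are chr6:34750748-34751047 in intron 5 of Cald1, chr15:81088251-81088550 in intron 1 of Mrtfa, chr5:107201223-107201522 in intron 3 of Tgfbr3 and chr8:84743328-84743627 in intron 2 of Nfix.
Cald1: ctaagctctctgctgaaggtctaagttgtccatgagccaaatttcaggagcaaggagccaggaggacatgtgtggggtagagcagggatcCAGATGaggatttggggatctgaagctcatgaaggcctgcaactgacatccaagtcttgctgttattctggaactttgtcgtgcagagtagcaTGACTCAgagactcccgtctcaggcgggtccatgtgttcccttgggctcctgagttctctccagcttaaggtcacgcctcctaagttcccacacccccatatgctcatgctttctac
Mrtfa: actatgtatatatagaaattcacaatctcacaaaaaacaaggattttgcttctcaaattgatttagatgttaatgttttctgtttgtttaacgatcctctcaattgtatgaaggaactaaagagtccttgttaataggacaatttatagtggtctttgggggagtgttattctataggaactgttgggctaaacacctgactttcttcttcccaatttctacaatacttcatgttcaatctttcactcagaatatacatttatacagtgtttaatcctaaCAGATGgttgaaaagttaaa
Tgfbr3: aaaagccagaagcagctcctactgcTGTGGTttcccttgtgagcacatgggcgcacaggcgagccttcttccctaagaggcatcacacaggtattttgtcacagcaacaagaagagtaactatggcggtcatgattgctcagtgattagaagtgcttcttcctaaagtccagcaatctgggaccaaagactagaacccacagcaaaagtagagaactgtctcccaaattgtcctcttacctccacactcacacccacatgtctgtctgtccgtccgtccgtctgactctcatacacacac
Nfix: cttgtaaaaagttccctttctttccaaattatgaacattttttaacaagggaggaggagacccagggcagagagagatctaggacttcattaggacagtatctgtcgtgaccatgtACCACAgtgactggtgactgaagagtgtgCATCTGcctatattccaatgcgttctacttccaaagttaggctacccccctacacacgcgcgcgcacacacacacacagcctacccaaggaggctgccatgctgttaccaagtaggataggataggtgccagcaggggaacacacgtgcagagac
The Cald1 window holds 1 match to AP-1 and 1 to the HAND and TWIST motif, and the Mrtfa window, with a GC content of 31.3%, holds only 1 match to the latter. The Tgfbr3 window holds 1 RUNX match, and the Nfix window holds 1 RUNX match and 1 match to the HAND and TWIST motif. A match is a description of the letters and not a measured binding site.

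The median width of the regions was 1715.5 bp, against 843 bp over all pooled H3K27ac peaks, and ran from 162 bp in an intron of Gpatch8 to 27066 bp in intron 3 of Zbtb20. Together the regions covered 15.7 Mb. The median fold enrichment over the local background was 1.89 in the pooled list, against 1.81 over all pooled peaks, and 71.1% of the regions reached a −log10 p of 1.3, against 50.6%. Heights, widths and coverage come from the calls that chose the regions and are given as a description, with no test. The pileup of a region in a replicate list is that of the peak with the longest overlap, in units of the mean pileup of the genome. For H3K27ac it had a median of 5.81, 6.22 and 6.16 in replicates 1, 2 and 3, and for H3K4me1 a median of 7.33, 7.15 and 7.53. The replicates of a mark lay close together, and in these 6 replicate lists each median was above the median of all peaks of the list. In the pooled H3K27ac list the regions had a median of 5.57, below the list median of 5.93.

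**Figure D1:**
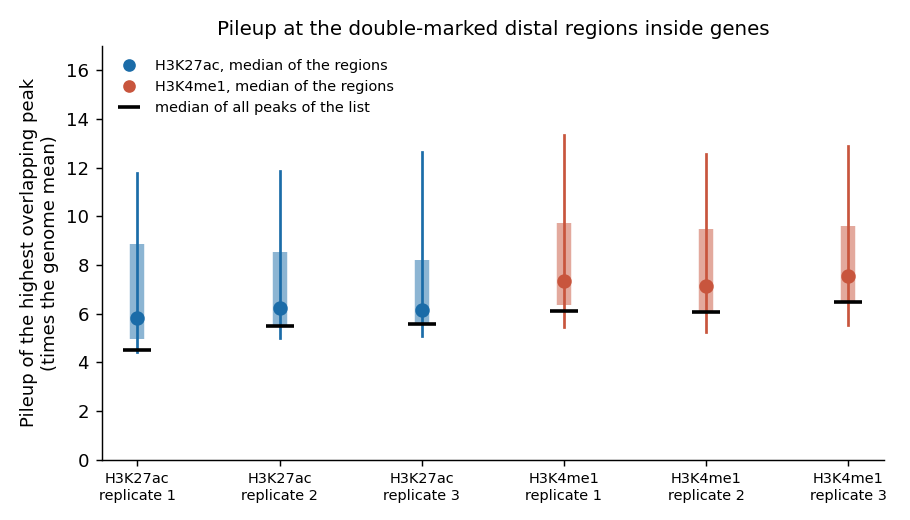
Pileup of the replicate peak with the longest overlap with each region (named highest on the axis), in times the mean of the genome, for the 6 replicate lists. Points are medians over the regions with a peak, thick bars span the 25th to 75th and thin lines the 5th to 95th percentile, and black dashes give the median of all peaks in the list. The H3K27ac medians lie between 5.81 and 6.22 and the H3K4me1 medians between 7.15 and 7.53.

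The overlap that the rule asks for was often small. H3K27ac replicates covered on average 68.7, 66.9 and 62.7% of a region, and H3K4me1 replicates 74.6, 79.7 and 78.6%. All 6 lists had a peak touching the region itself in 6654 cases (95.9%), and 288 regions (4.15%) had no peak of at least 1 H3K4me1 replicate, since the rule lets the replicate peak touch another part of the pooled H3K4me1 peak. In 1819 regions (26.2%) each of the 6 lists covered at least 50% of the sequence, and in 944 (13.6%) at least 1 list covered under 10%. At the edge of the start window, the nearest region inside the rule lay 1001 bp from a transcript start, in Zfp704, and the nearest peak outside it 999 bp from one, in Rabep1.

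The region in Chl1 stood far above the rest. This 243 bp region in intron 4 of a neural cell adhesion gene, at chr6:103649049-103649291, had a pileup of 448, 427 and 447 times the genome mean in the H3K27ac replicates and 319, 241 and 268 times in the H3K4me1 replicates. By rank in the weakest of the 6 lists, a 530 bp region in intron 1 of Cldn34d on X followed, with 23.6, 19.6 and 22.2 times for H3K27ac and 18.6, 17.2 and 17.8 times for H3K4me1. In the pooled list their fold enrichment was 31.8 and 6.82, and no other region was above 3.35. No list of problematic genome regions had been applied, and whether the antibodies or the sequence set these heights was not tested. After them, by the same rank, came regions in introns of 1600014C10Rik, Ralgds, Nfix, Trak1, Piezo1 (which lies within the read-through model Gm20388) and Ctif. Nfix encodes a nuclear factor I transcription factor, Ralgds an activator of Ral GTPases and Piezo1 a channel opened by membrane tension. In the Nfix region the H3K27ac pileup was 15.8, 15.2 and 17.8 times and the H3K4me1 pileup 15.7, 14.2 and 17.2 times the genome mean.

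Width and GC content differed between low-ranked and high-ranked regions, while the share with an AP-1 match varied little. Among the 1736 regions with the lowest rank in their weakest list, the median width was 932 bp and the median GC content of the 300 bp centre 38.3%. Among the 1736 with the highest rank these were 2680.5 bp and 46.5%. The share with an AP-1 match was 13.0% in the former and 13.5% in the latter. These values describe the regions and share the same calls.

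Most regions lay in introns. A single host gene held 6752 regions (97.3%), and 190 lay in more than 1. Of the 6942, 5856 (84.4%) lay wholly within introns and 1083 (15.6%) touched an exon of a coding transcript. In the principal transcript of the host gene, 6156 midpoints (88.7%) were intronic, 195 exonic and 591 outside that transcript. The intronic share of gene body sequence was not computed, so these shares have no background beside them. Intron 1 held 2265, or 36.8% of the intronic midpoints, while it made up 26.5% of the intron sequence of the host genes outside the start windows. This came to 26.4 regions per Mb of intron 1, 23.7 in intron 2, 19.1 in intron 3 and 13.5 in intron 4 or later. The density was thus lower at each step in intron number, with the transcript start windows, which the rule removes, left out of the intron sequence.

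**Figure D2:**
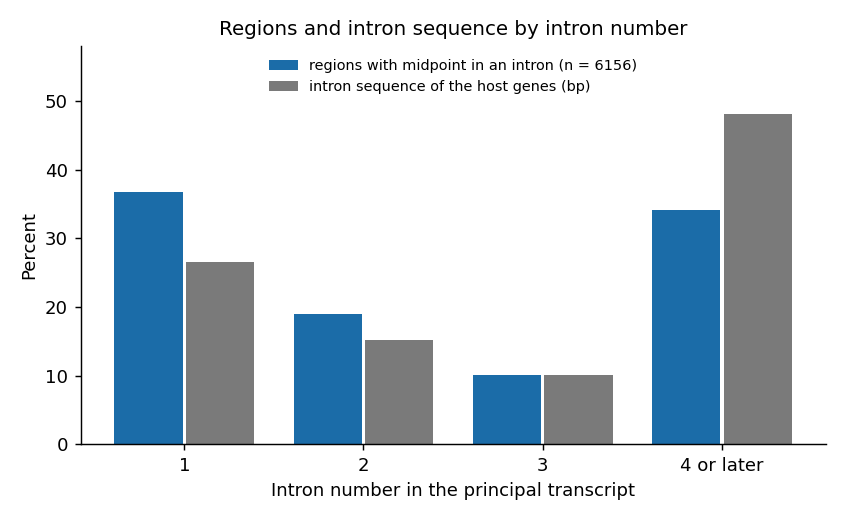
Share of intronic midpoints of the regions (blue, n = 6156) and share of intron bp of the host genes outside the start windows (grey), in percent, by intron number in the principal transcript. Intron 1 holds 36.8% of the midpoints and 26.5% of the sequence, and introns 4 or later hold 34.2% and 48.1%.

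Along the host gene, the 5 equal stretches from start to end held 21.8, 24.8, 21.1, 18.2 and 13.5% of the midpoints. The median distance to the nearest transcript start of any gene was 10809 bp, with 50% of regions between 4886 and 24400 bp. Regions in the same gene often lay near each other: the median gap between neighbours was 9051.5 bp, and 1557 of 4186 neighbouring pairs (37.2%) were at most 5 kb apart. By gene body length, autosomes held 4.91 to 9.36 regions per Mb and X held 3.18, the lowest of all chromosomes.

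Most protein-coding genes held no region. At least 1 region was found in 2869 of 21755 genes, which is a background of 13.2%. Of these, 1471 held 1 region, 1044 held 2 to 4, and 354 held 5 or more. Host genes were long: their median length was 83.3 kb, against 14.0 kb for genes without a region. The share of genes with a region went from 0.819% at up to 10 kb to 52.4% above 300 kb, and the density also depended on length, with 0.183 regions per 100 kb at up to 10 kb, 0.946 at 100 to 300 kb and 0.440 above 300 kb. For each list of genes below, the share with a region and the density are therefore set beside the values that all genes of the same 5 length classes have, weighted as in the list. This length background was added after the values had been seen, and it is a description with no test.

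The genes with the most regions were Rad51b (46), Pde4d (34), Lpp (33), Zbtb20 (31), Vps13b (29), Celf2 (26), Tcf12 (24), Akap13 (22), Palld (22), Gm20388 (22), Arhgap42 (21) and Dlc1 (19). Together they held 4.61% of the 7140 pairs of a region and a host gene. Palld encodes palladin, a protein of actin filaments, Lpp a LIM protein of focal adhesions, Akap13 an anchoring protein of protein kinase A, and Arhgap42 and Dlc1 GTPase-activating proteins. Pde4d encodes a phosphodiesterase that breaks down cAMP, and Tcf12 and Zbtb20 encode transcription factors. Gm20388 is a gene model of 4435 kb that reads through many genes, and 12 of its 22 regions also lay in a smaller protein-coding gene.

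Rad51b, a DNA repair gene, had the highest count, with 8.89 regions per 100 kb over 517 kb at chr12:79297282-79814690. All 46 midpoints were intronic and none lay in intron 1, and the regions spanned 460 kb and covered 30.5% of the gene. Their median pileup was 6.88, 7.64 and 7.03 times the genome mean for H3K27ac and 7.52, 8.07 and 7.86 times for H3K4me1. Tcf12 (8.92 per 100 kb) and Arhgap42 (8.58 per 100 kb, 31.7% of the gene covered) were as dense. Pde4d, with 1504 kb, had 2.26 regions per 100 kb.

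Genes with a region more often had a marked promoter, a measure that the rule did not use since it leaves out all transcript starts. Over the 3 H3K27ac lists, 88.3 ± 0.416% (SD, n = 3) of genes with a region had an H3K27ac peak within 1 kb of one of their own starts, against 49.2 ± 1.29% of genes without. For H3K4me1 the shares were 76.0 ± 1.13% and 38.2 ± 2.33% (SD, n = 3). The differences, 39.1 and 37.8 percentage points, had the same sign in 3 of 3 lists, and the exact sign-flip permutation test over 3 lists gave p = 0.25 for each, the smallest value that it can give. Among genes of 30 to 100 kb, where length differs less, H3K27ac promoter peaks were found in 60.7 ± 1.303% of genes with no region, 88.7 ± 0.484% with 1, 96.0 ± 0.247% with 2 to 4 (SD, n = 3), and in 98.2% with 5 or more in each list. For H3K4me1 the values were 50.4 ± 2.16, 73.5 ± 1.80, 81.4 ± 1.61 and 85.5 ± 1.82% (SD, n = 3). The groups did not overlap in any list between no region and 1 region, and a comparison by gene length class was chosen after the data had been seen.

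**Figure D3:**
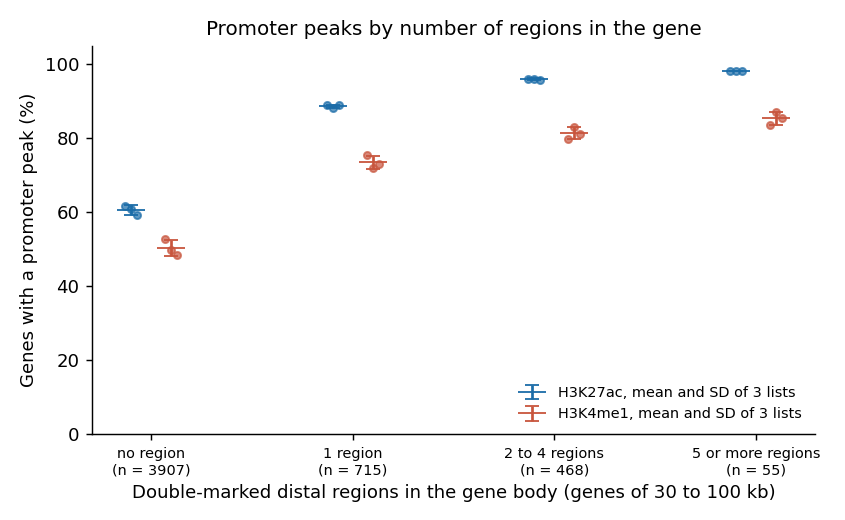
Percent of genes of 30 to 100 kb with a peak within 1 kb of a transcript start of their own, by the number of double-marked distal regions in the gene body. Points are the 3 replicate lists of H3K27ac (blue) and H3K4me1 (red), and bars give mean and SD. H3K27ac goes from 60.7% at no region to 98.2% at 5 or more, and H3K4me1 from 50.4% to 85.5%.

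Regions among the genes of smooth muscle contraction lay in a few of them. Of 16 such genes, with a median length of 23.2 kb, 4 held a region, against a length background of 14.6%: Synpo2 (8), Cald1 (5), Tpm1 (1) and Mylk (1). The median over the list was 0 regions, as over all genes, and summed over the list there were 1.65 regions per 100 kb against a length background of 0.808 and 0.667 over all protein-coding genes. Synpo2 encodes synaptopodin 2, an actin-bundling protein, and 7 of its 8 regions lay in intron 1. Its best-ranked region, in intron 1 at chr3:123173249-123178072, had an H3K27ac pileup of 10.2, 10.0 and 10.3 times and an H3K4me1 pileup of 14.4, 12.3 and 12.3 times the genome mean. Cald1 encodes caldesmon, which holds back actomyosin, and the region shown above had 11.02, 11.4 and 12.2 times for H3K27ac and 12.4, 11.8 and 11.9 times for H3K4me1. Acta2 and Myh11, which encode smooth muscle actin and myosin, held none. In Acta2, 14.5 kb long, all 6 lists had a promoter peak. In Myh11, with 96.8 kb, neither pooled list had a peak anywhere in the gene, while the H3K27ac replicate lists had 1, 2 and 1 and the H3K4me1 lists 3, 1 and 0.

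The factors that switch on contractile and growth genes held a region more often than all genes of their length. In the list of SRF, its MRTF and myocardin partners, and YAP and TEAD with their cofactors, 7 of 12 genes (median length 84.98 kb) held a region, or 58.3% against a length background of 28.8% and 13.2% of all genes. The median was 1.5 regions, and the density was 3.00 per 100 kb against a length background of 0.888. Mrtfa, the actin-sensing coactivator of SRF, held 11, and its best-ranked region had 13.7, 16.7 and 14.3 times the genome mean for H3K27ac and 15.9, 14.8 and 14.5 times for H3K4me1. Tead1 and Vgll3, a TEAD factor and a TEAD cofactor, held 6 each, and in Vgll3 these covered 34.4% of the gene. Srf, Yap1 and Myocd held none. Myocd, the cardiac and smooth muscle coactivator of SRF, also had a promoter peak in only 1 list of each mark.

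**Figure D4:**
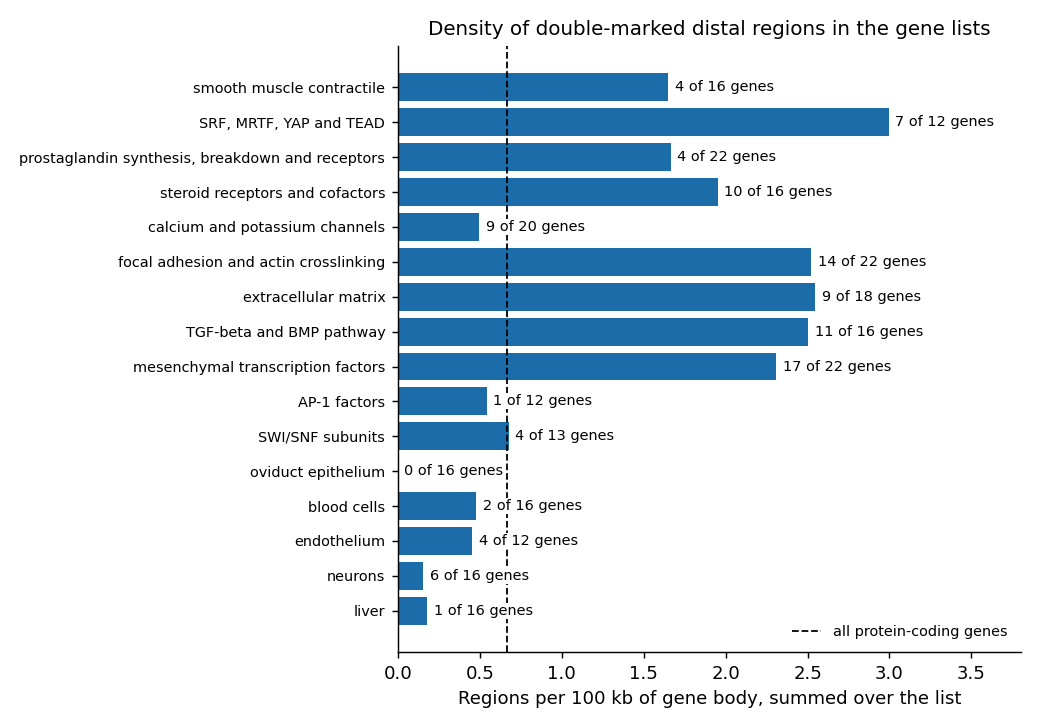
Double-marked distal regions per 100 kb of gene body, summed over the genes of each list, with the number of genes that hold a region. The dashed line gives all protein-coding genes (0.667). The list of SRF, MRTF, YAP and TEAD stands at 3.00, and oviduct epithelium at 0 of 16 genes.

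Regions in the prostaglandin pathway lay mostly in a gene for substrate release. Of 22 genes for synthesis, transport, breakdown and receptors, with a median length of 24.2 kb, 4 held a region, or 18.2% against 13.2% of all genes and a length background of 15.7%, with a median of 0 and 1.67 per 100 kb against a length background of 0.820. Pla2g4a, the cytosolic phospholipase A2 that frees arachidonic acid, held 14 of the 18 regions in the list. They covered 34.4% of its 132 kb at chr1:149829618-149961290, at 10.6 per 100 kb, and 4 lay in intron 1. Median pileup over the 14 was 5.49, 5.84 and 5.96 times the genome mean for H3K27ac and 6.66, 5.88 and 6.54 times for H3K4me1. Abcc4, an exporter of prostaglandins, held 2, and Tbxas1 and Ptges, the synthases of thromboxane A2 and prostaglandin E2, held 1 each. Ptgs2, the inducible cyclooxygenase, held none in 8.20 kb and had a promoter peak in all 6 lists. The receptor genes Ptgfr and Ptger3 held none, and Ptger3 had no promoter peak in any list. Ptger3 had no pooled H3K27ac peak in its 79.0 kb, although single H3K27ac lists had 7, 3 and 5 peaks there.

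Among steroid receptors and their cofactors, 10 of 16 genes (median length 130 kb) held a region, or 62.5% against 13.2% of all genes and a length background of 36.7%. The median was 2, and the density was 1.95 per 100 kb against a length background of 0.768. Esr1, the estrogen receptor alpha, held 17 over 358 kb of its 394 kb, all within introns and 5 of them in intron 1. Median pileup over the 17 was 5.32, 6.27 and 5.84 times the genome mean for H3K27ac and 6.87, 7.65 and 7.35 times for H3K4me1. Pgr, the progesterone receptor, held 5 regions in 68.8 kb, or 7.27 per 100 kb against 4.31 in Esr1. None of the 5 lay in intron 1, and their median pileup was 5.40, 6.13 and 5.43 times for H3K27ac and 6.77, 6.89 and 6.75 times for H3K4me1. Esr2, the estrogen receptor beta, held none.

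Among cell adhesion, matrix and growth factor genes the shares were likewise above the 13.2% of all genes and above the length background. In focal adhesions and actin crosslinking (median length 98.6 kb) 14 of 22 genes held a region, or 63.6% against a length background of 32.4%, with a median of 1 and 2.52 per 100 kb against 0.809. In the extracellular matrix (median length 56.2 kb) 9 of 18 did, against 26.5%, with a median of 0.5 and 2.55 per 100 kb against 0.870. In the TGF-beta and BMP pathway (median length 87.1 kb) 11 of 16 did, or 68.8% against 29.7%, with a median of 2 and 2.51 per 100 kb against 0.764. Lpp held 33, Tns1, which encodes tensin, 10 and Vcl, which encodes vinculin, 7. Col5a2, a fibrillar collagen gene, held 11 that covered 40.6% of its length. Fbn1 for fibrillin held 5 and Col4a1 for a basement membrane collagen 4. The TGF-beta coreceptor gene Tgfbr3 held 10, the BMP receptor gene Bmpr1a 7 and Ltbp1, which encodes a protein that binds latent TGF-beta, 6. Over the 10 regions of Tgfbr3 the median pileup was 8.93, 10.8 and 10.6 times for H3K27ac and 11.7, 11.3 and 10.997 times for H3K4me1.

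Mesenchymal transcription factors had the highest share of the lists, with 17 of 22 genes or 77.3%, and their median length of 193 kb was the longest after that of neuronal genes. All genes stood at 13.2% and the length background at 37.4%. The median was 3, and there were 2.31 regions per 100 kb against a length background of 0.623. Tcf4, an E protein that pairs with TWIST and HAND factors, held 16, and Nfia and Ebf1 held 11 each. The short genes Twist1, Snai2 and Tcf21 held none. Of the AP-1 genes, which are short (median 9.77 kb), 1 of 12 held a region (Batf), or 8.33% against a length background of 6.27%, although 11 of the 12 had an H3K27ac promoter peak in all 3 lists. Of SWI/SNF subunits (median 77.8 kb) 4 of 13 did, or 30.8% against a length background of 29.2%, at 0.676 per 100 kb against 0.740, with 2 regions each in Arid1a, Arid1b, Arid2 and Smarcc1. Pbrm1, 102 kb long, held none and had a promoter peak in all 6 lists.

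Calcium and potassium channels, whose genes are long (median 166 kb), stood near the length background. A region was present in 9 of 20 genes, or 45.0% against a length background of 37.6%, at 0.496 per 100 kb against 0.505 and with a median of 0. Cacna2d1, an auxiliary subunit of voltage-gated calcium channels, held 10, Itpr1, the calcium release channel of the endoplasmic reticulum, 4, and Kcnma1, the large-conductance potassium channel, 3. Cacna1c, the pore of the L-type channel of smooth muscle, held 1 in 609 kb, and the ryanodine receptor genes Ryr2 and Ryr3 none.

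In each of the lists of other cell types the density was below that of all genes of the same lengths. No gene of 16 for the oviduct epithelium (median length 10.7 kb) held a region, against a length background of 11.9% and 0.827 per 100 kb. Of the liver genes (median 16.9 kb) 1 of 16 did (Abcb11), or 6.25% against 14.0%, at 0.178 per 100 kb against 0.756. Blood cell genes, with a median of 41.1 kb, were at 2 of 16, or 12.5% against 20.6%, at 0.476 per 100 kb against 0.652, with 5 regions in Ptprc, the pan-leukocyte marker CD45, and 1 in Fyb. Endothelial genes, with a median of 93.8 kb, were at 4 of 12, or 33.3%, above the 13.2% of all genes and the length background of 29.2%, yet at 0.453 per 100 kb against 0.888, with 2 regions in Tek and 1 each in Pecam1, Kdr and Vwf. Neuronal genes were at 6 of 16, or 37.5%, which is above the 13.2% of all genes and below the length background of 42.7%, with a median length of 514 kb and a density of 0.153 per 100 kb against 0.444. In that list Kcnd2, a potassium channel gene, held 10 and Dlg2, a synaptic scaffold gene, 6. In Ptprc the median H3K27ac pileup was 5.24, 5.95 and 5.75 times and the H3K4me1 pileup 5.09, 5.54 and 6.52 times the genome mean, and all 5 regions were intronic. The median of each of these 5 lists was 0.

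To compare the regions with H3K27ac sites that lack H3K4me1, distal peaks inside protein-coding genes were split within each H3K27ac list by overlap with the pooled H3K4me1 list. There were 26847, 26107 and 24521 peaks with H3K4me1 and 37892, 19794 and 18879 without in replicates 1, 2 and 3. Position and sequence were not used in the split. Intron 1 held 34.6 ± 0.417% of midpoints with H3K4me1 and 15.8 ± 0.209% of those without (SD, n = 3), with the same direction in 3 of 3 lists. The exact sign-flip permutation test gave p = 0.25, the smallest that 3 lists allow, and adjusted p = 0.357 over 20 features, so no difference here can pass 0.05. In the same 3 lists the peaks with H3K4me1 had a higher median GC content (41.2 ± 0.192 against 39.9 ± 0.770%), fewer bases in repeats (19.4 ± 0.102 against 23.8 ± 0.574%), and more windows with an AP-1 match (12.2 ± 0.201 against 10.3 ± 0.160%) or a HAND and TWIST match (21.97 ± 0.290 against 20.3 ± 0.371%). TEAD matches stood at 16.2 ± 0.224 against 14.9 ± 0.170%, although among pooled peaks the order was the other way, with 16.03% of the 6942 regions against 16.2% of distal peaks inside genes without H3K4me1. SP and KLF matches stood at 2.84 ± 0.0891 against 1.64 ± 0.257%. Matches to the CCAAT box of NF-Y were fewer, at 33.9 ± 0.635 against 36.8 ± 1.48%. All these values are SD, n = 3, and each had p = 0.25 by the exact test. For RUNX the lists disagreed, with 2 of 3 higher. Among peaks found in all 3 H3K27ac lists, which is nearer to the rule, several of these differences were larger, at 3.33 percentage points for GC content (1.33 over all peaks), 3.06 for HAND and TWIST (1.71) and 2.02 for SP and KLF (1.20).

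**Figure D5:**
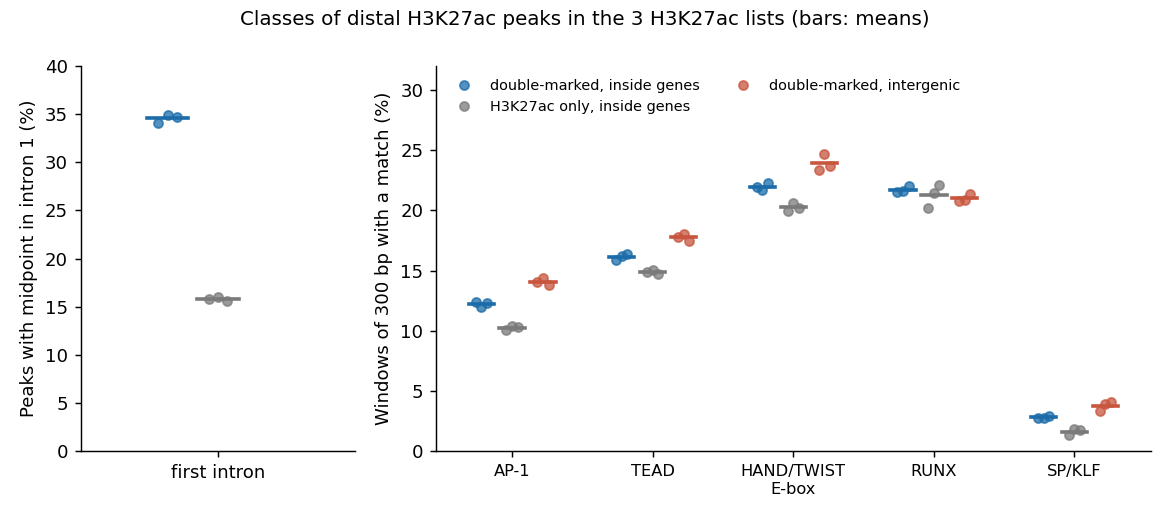
Percent of distal H3K27ac peaks with their midpoint in intron 1 (left) and percent of 300 bp centre windows with a motif match (right), in the 3 H3K27ac replicate lists. Blue points are peaks inside genes with H3K4me1, grey points peaks inside genes without H3K4me1 and red points intergenic peaks with H3K4me1, and short bars are means. Intron 1 holds 34.6% of the blue and 15.8% of the grey peaks, and AP-1 matches lie at 12.2, 10.3 and 14.1%.

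A second comparison was with peaks that carry both marks and lie outside all annotated genes. AP-1 matches were fewer inside genes (12.2 ± 0.201%) than outside (14.1 ± 0.299%), as were TEAD matches (16.2 ± 0.224 against 17.8 ± 0.284%), HAND and TWIST matches (21.97 ± 0.290 against 23.9 ± 0.659%) and SP and KLF matches (2.84 ± 0.0891 against 3.81 ± 0.367%). RUNX matches were more frequent inside genes, at 21.7 ± 0.242 against 21.02 ± 0.330%, as were MEF2 matches, at 7.42 ± 0.256 against 6.42 ± 0.402% (SD, n = 3 throughout). Among pooled regions, however, MEF2 matches were at 7.53% inside and 7.51% outside genes, and RUNX matches at 20.6 and 20.2%. Among peaks found in all 3 H3K27ac lists the HAND and TWIST difference was −1.22 percentage points (−1.93 over all peaks), with lists that no longer shared a direction (exact sign-flip permutation p = 0.5), while SP and KLF stood at −1.63 (−0.967) and RUNX at 1.27 (0.689). Over all peaks of the replicate lists each had the same direction in 3 of 3, p = 0.25 by the exact sign-flip permutation test and adjusted p = 0.279 over 19 features.

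In the pooled list, 911 of the 6942 regions (13.1%, Wilson 95% interval 12.3 to 13.9%) had an AP-1 match in their central 300 bp. The share was 12.1% over all 64816 pooled H3K27ac peaks, 8.02% over the 17074 peaks at transcript starts and 15.4% over the 3663 double-marked distal regions that overlap no annotated gene. In 6112 windows that lay 5 kb from a region in the same gene and in no pooled peak, it was 8.02%. Median GC content was 41.7% in these windows and 40.3% in the regions, 31.8% of their bases lay in repeats against 18.7%, and the part of either in the AP-1 share was not tested. RUNX matches were found in 20.6% of regions and 21.02% of the side windows, TEAD matches in 16.03 and 15.1%, HAND and TWIST matches in 22.8 and 20.7%, and the steroid receptor element (ACA and TGT with 3 bases between) in 11.2 and 8.71%. The CArG box of SRF was found in 119 regions (1.71%) and in 1.69% of the side windows.

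Of the other motifs searched on both strands, MEF2 sites were in 7.53% of regions and 6.13% of all pooled peaks, GATA sites (AGATAA) in 20.99 and 17.8%, the CCAAT box (CCAAT) in 33.5 and 32.8%, the CTCF core (CCA, AG and GGC, each 2 bases apart) in 1.71 and 2.25%, and the E-box (CANNTG), which contains the HAND and TWIST motif, in 79.6 and 77.9%. SP and KLF matches were in 2.77% of regions and 9.36% of all pooled peaks. Full palindromes of the estrogen receptor element (GGTCA and TGACC with 3 bases between) were in 8 regions and those of NFI (TTGGC and GCCAA with 5 bases between) in 3. The full CRE (TGAC followed by GTCA) was in 16 regions and the ETS motif (CCGG followed by AAGT) in 12.

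Finally, the strand of the host gene, which the rule did not use, was set against the marks around the 6752 regions with a single host. In the 2 kb upstream of the region H3K27ac lists covered 29.8, 23.8 and 20.98% and in the 2 kb downstream 27.8, 21.8 and 19.02%. H3K4me1 lists covered 41.5, 45.0 and 43.0% upstream and 37.6, 40.4 and 38.4% downstream. Both marks were thus lower on the downstream side in all 3 lists. Downstream minus upstream was −1.95 ± 0.0204 percentage points for H3K27ac and −4.38 ± 0.448 for H3K4me1 (SD, n = 3), and the marks did not overlap. The exact permutation test over 20 assignments of the 6 lists, two-sided, gave p = 0.1, the smallest that 3 against 3 can give. Adjusted over 2 measures, this and the within-region one below, p was 0.1, although lists that share an IgG control are not independent. Each flank starts at the edge of a pooled H3K27ac peak chosen by the rule, where pooled H3K27ac ends and H3K4me1 need not. The test therefore cannot tell a difference between the marks from the way the regions were chosen. The size depended on the flank. With flanks of 1 kb H3K27ac differed by −0.590, −0.310 and −0.535 percentage points in replicates 1, 2 and 3 and H3K4me1 by −3.21, −3.68 and −3.15. With flanks of 5 kb H3K27ac differed by −4.46, −4.56 and −4.34 and H3K4me1 by −4.69, −5.27 and −5.77, so that H3K4me1 minus H3K27ac was −0.786. Within the regions, H3K4me1 covered 1.32 ± 0.718 percentage points less sequence downstream of the midpoint than upstream, and H3K27ac 0.000622 ± 0.237 more (SD, n = 3). This coverage comes from the calls that chose the regions and is a description. Its test entered the adjustment above and is not read further.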

How the data were processed

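Peak lists of ChIC-Seq of primary oviductal muscle cells were used: 3 replicate lists and 1 pooled list for each of H3K27ac and H3K4me1. Per the labels, reads were trimmed with cutadapt, aligned to GRCm38.p5 with Bowtie2 and peaks were called with MACS2. Versions of the first 2 tools are not given in the sources used here. Per the file headers the authors called broad peaks with MACS 2.2.7.1, against IgG, where p up to 0.05 made a strong and p up to 0.1 a weak stretch and the deeper library was scaled down. The deposited pileup is a coverage signal in fragments at IgG depth. The deposited fold enrichment is a ratio to the local background. The p-values in the deposited lists are on the −log10 scale, and the q column is not reported, since the headers say that q would not be calculated. As calls were made at a permissive cutoff and against shallow IgG, single weak peaks are uncertain and an uncalled site may still carry a mark. The reporting paper given for the series describes uterine cells, and its methods were not taken over.

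Overlaps of at least 1 bp, introns and gene bodies were computed in Python 3.11.15 with numpy 2.4.6, pandas 2.3.3 and scipy 1.17.1 from GENCODE release 21, and sequences were read from the GRCm38 reference with pysam 0.24.0. No peak ended beyond the reference chromosomes. Pileup was divided by its mean over the genome (fragments times fragment size over the effective genome size). The value of a region in a list is that of the peak there with the longest overlap. The principal transcript was the one with the best APPRIS tag, then the longest coding sequence. Repeats are the soft-masked bases of the reference. The windows to be printed were chosen among regions outside chromosome 18, so a better-ranked region there, such as that in Smad7, was passed over. Motifs were matched as exact letters on both strands. Lists were compared by exact permutation tests, two-sided, with Benjamini-Hochberg adjustment. The overlap and test functions were tested on simulated data. Regions and gene lists were chosen with earlier results of these data known, and gene lists carry no test. Genes were named as the 12 with most regions, up to 3 per list with most regions (up to 5 for other cell types), the 8 regions of highest rank, 1 per gene, and Ptgs2, Ptgfr, Ptger3, Pgr, Esr1, Acta2, Myh11 and Pbrm1. Further genes were named after their values had been seen. Some items that this rule names are not reported here.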

Additional observations from a re-analysis of the deposited data

How the results depend on the processing

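Of 455 values under alternatives, for 78 results, 435 were labelled as kept, 11 as moved and 9 as changed in sign. Differences were kept when their sign held, and counts when they stayed within 1.5 times. Motif and intron shares were kept when they stayed within the Wilson interval of the main share. A difference has the same value with and without the replicate block, so that setting could not move it. A difference with the same sign in all 3 lists also cannot change sign when 1 list is left out. Part of the 435 was thus fixed in advance and is no measure of stability. The number of regions was 4780 to 9359 under the other settings, but when 50% of a region had to be covered by each replicate list and by the pooled H3K4me1 list, 1657 regions in 1032 genes were left. Regions and host genes rest on calls at a permissive cutoff, and the IgG depth limits how far a weak peak can be told from background. Without 1 replicate list, between 1 and 2 genes of the AP-1 list and between 1 and 2 of the liver list held a region. Against H3K27ac peaks without H3K4me1, the CArG box difference was −0.167 percentage points for peaks found in all 3 H3K27ac lists and the E-box difference −0.179 in 500 bp windows, both opposite to the main value, and the CTCF difference ran from −0.0757 to 0.196 without 1 list each. Against intergenic peaks, the NFI difference was −0.000312 in 200 bp and −0.00171 in 500 bp windows, −0.0197 for peaks found in all 3 lists, and −0.0185 to 0.0201 without 1 list. For peaks found in all 3 lists the GATA difference was 0.332 and the CTCF difference 0.0232, opposite to the main values. The cause of these changes was not tested, and the report draws no difference for the CArG box, E-box, CTCF, NFI or GATA motifs.

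The share of all regions with their midpoint in intron 1 was 32.6% in the principal transcript and 45.5% when any transcript of the gene counted. Only 5054 regions (72.8%) had sequence shared by all 6 replicate lists. At the centre of that sequence, matches were more frequent for AP-1 (14.6%), TEAD (17.3%), RUNX (21.6%) and the steroid receptor element (12.05%). Here the set of regions differs as well as the window. Same-numbered H3K27ac and H3K4me1 lists had correlations of −0.0183, 0.218 and 0.357 between their deviations at the regions. Replicates 2 and 3 of the marks also shared an IgG control, so a pairing by number cannot be told apart from the control there. The 3 pairs that shared an IgG control had 0.212, 0.218 and 0.357 and the 6 other pairs −0.361 to 0.0216. Deviations were taken from the mean of the 3 lists of a mark, so these correlations are tied to one another, and their cause was not tested. With the replicate block, the flank difference of −2.43 percentage points had an exact sign-flip permutation p of 0.25. The block changes only the test, so this difference and that of −1.32 within regions, a description, kept their values by construction. Without 1 list each, they ran from −2.69 to −2.30 and from −1.63 to −0.925. With flanks outside the start windows, a setting chosen after seeing the data, the flank difference was −2.63.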
